A study of Mus musculus with 12 samples.

Results

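Interleukin-2 (IL-2) reaches T cells through a surface receptor of alpha, beta and gamma chains and a short relay to the nucleus. The 7 genes described here encode that receptor and relay: Il2ra, Il2rb and Il2rg for the 3 chains, Jak1 and Jak3 for the kinases bound to the beta and gamma chains, and Stat5a and Stat5b for the transcription factors that the kinases activate. They were taken by symbol from a table of read counts for 21839 mouse genes. All 7 were found, each as 1 row, and all 7 were among the 11766 genes with enough counts to be tested.

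The alpha chain, whose protein is called CD25, raises the affinity of the receptor for IL-2, while the beta and gamma chains carry the signal. IL-2 brings the chains together, JAK1 and JAK3 phosphorylate the beta chain and then STAT5, and STAT5 dimers enter the nucleus and bind the genes they control. Regulatory T cells (Tregs) are Foxp3-expressing CD4 T cells that dampen immune responses. They carry much CD25, make little IL-2 of their own and need IL-2 and STAT5 for their development and survival. The beta chain also serves the IL-15 receptor and is abundant on NK cells and memory CD8 T cells, and the gamma chain is shared with the receptors for IL-4, IL-7, IL-9, IL-15 and IL-21.

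The cells were CD4+ T cells of C57BL/6 mice, positive for 1 more sort marker, taken from spleen and from inguinal, cervical and brachial lymph nodes, labelled as Tregs and sorted as CD25 High or CD25 Low. All mice were Atg5 flox/flox, so both genotypes carried the loxP-flanked autophagy gene Atg5. WT mice were CD11c Cre -/- littermates, and TG mice were CD11c Cre +/-, in which the CD11c promoter drives Cre, so that dendritic cells and other CD11c+ cells lose Atg5. The deletion was therefore not aimed at the sorted T cells. The 4 groups (WT High, WT Low, TG High and TG Low) had 3 libraries each, and the study asked how these Treg populations differ when dendritic cells lack autophagy. The age of the mice and whether the replicates came from separate animals are not given in the labels, so every p-value speaks of the spread among these 12 libraries, which may be technical.

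Total counts ran from 18161830 to 23942479 in 11 libraries and were 6767828 in TG High replicate 2. Even there the 7 genes had from 1143 counts (Stat5a) upwards, and the highest count of any of them was 49194 (Jak1). Foxp3 stood at 1014 to 1648 and Cd4 at 509 to 725 CPM (counts per 1000000 counts of the unscaled library total) over the 12 libraries, so these defining RNAs of the labelled cells were present in all of them. No Foxp3 stain is named in the labels. Libraries with the same replicate number varied together across the groups, so a fit blocked on that number stands beside the plain one where it alters a call or a count.

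All 7 genes were well expressed, and per length the receptor chains and Jak1 stood above Jak3 and the STAT5 genes, except that Il2ra overlapped Jak3 and Stat5b in WT Low. Between genes, levels can be compared only per length, here as CPM (of library totals scaled with TMM, the trimmed mean of M values) per kilobase of a gene's merged exons. Il2rg was highest, at 744 ± 39.4 in WT High, 730 ± 21.5 in WT Low, 761 ± 33.8 in TG High and 791 ± 35.9 in TG Low (means of 3 libraries ± SD). Il2rb followed in the High gate at 432 ± 10.4 in WT and 443 ± 11.1 in TG, and was at 239 ± 23.9 and 246 ± 18 in the Low gate. Jak1 stood at 258 ± 19.6 to 267 ± 41.5 in the 4 groups, below Il2rb in both High groups. In the Low groups Jak1 and Il2rb did not differ beyond their spread on this length.

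Il2ra came next in both High groups at 208 ± 20.7 in WT and 207 ± 11.9 in TG, and stood at 103 ± 22.8 and 104 ± 18.9 CPM per kilobase in the Low groups. Stat5b (81 ± 3.32 to 88.6 ± 3.15) and Jak3 (73.3 ± 7.11 to 79 ± 14.6) were neighbours, and their libraries overlapped in all groups but TG High. Stat5a was lowest at 21.8 ± 2.21 to 26.8 ± 2.03. Over the 12 libraries the mean per length placed Il2rg at percentile 99.9 of all tested genes and Stat5a at percentile 78.8. When the longest annotated transcript of each gene replaced the merged exons, Il2rg stood between 1044 and 1131. The group means of Jak3 (96.9 ± 9.4 to 104 ± 19.3) then passed those of Stat5b (86 ± 3.53 to 94.2 ± 3.35), with overlapping SDs in each group. In the Low groups Jak1 was then above Il2rb beyond the spread, at 381 ± 28.9 against 244 ± 24.4 in WT and 384 ± 59.3 against 251 ± 18.4 in TG. The order of the Jak3 and Stat5b means and that of Jak1 and Il2rb in the Low groups thus depend on the length used.

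**Figure D1:**
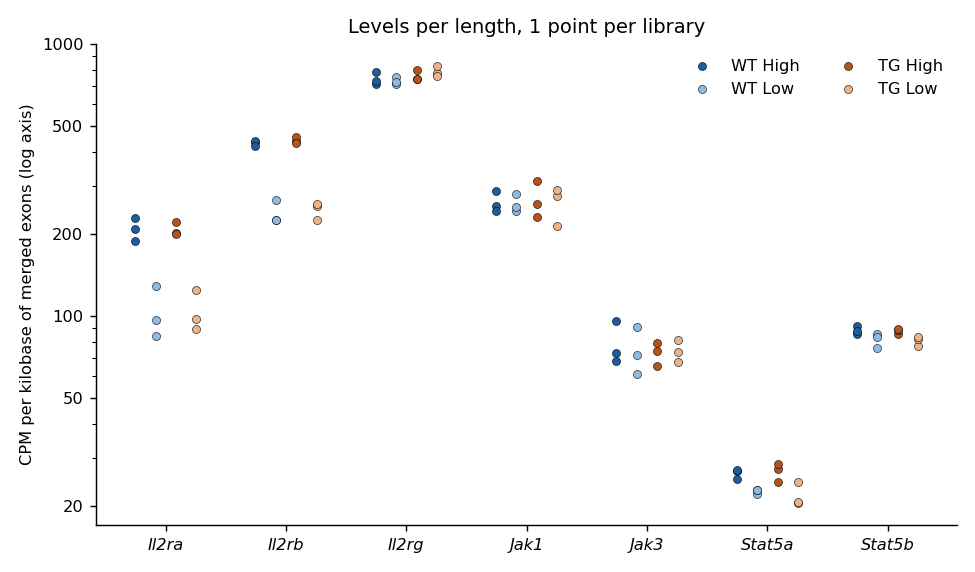
Level of each gene per length in each of the 12 libraries (log axis, CPM per kilobase of merged exons), 1 point per library, coloured by group. Il2rg lies between 713 and 831 in all libraries and Stat5a between 20.5 and 28.5, and only Il2ra and Il2rb show a wide gap between the High and Low libraries.

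The first comparison asks which genes of the receptor and its relay go with the surface level of CD25. The alpha and beta chain RNAs were about 2.01-fold and 1.8-fold higher in CD25 High than in CD25 Low cells (mean of both genotypes), and the 2 changes had nearly the same size in WT and TG mice. Stat5a was 1.19-fold higher, a difference called with the replicate block and, without it, by DESeq2's Wald test but not by edgeR. Il2rg, Jak1, Jak3 and Stat5b did not pass the test. The count of members called in edgeR's quasi-likelihood test, with Benjamini-Hochberg adjustment over all 11766 genes at 0.05, was 2 of 7 in the mean gate effect, where 0.518% of all tested genes were called in either direction, 0.348% as higher and 0.170% as lower in High. With the replicate block it was 3 of 7, where 5.88% of all tested genes were called, 3.26% as higher and 2.63% as lower in High. In WT alone 1 of 7 was called (0.0510% of all genes, 0.0425% as higher) and with the block 2 of 7 (1.63%, of which 0.994% were higher and 0.637% lower). In TG alone 1 of 7 was called (0.00850% of all genes, all as higher) and with the block 2 of 7 (1.68%, of which 0.986% were higher and 0.697% lower). Il2ra encodes the gated protein, so where it is among the members counted, here and by library below, it is not an independent result. In the bulk RNA of a sorted gate, fewer cells that express a gene and less RNA per cell cannot be told apart.

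**Figure D2:**
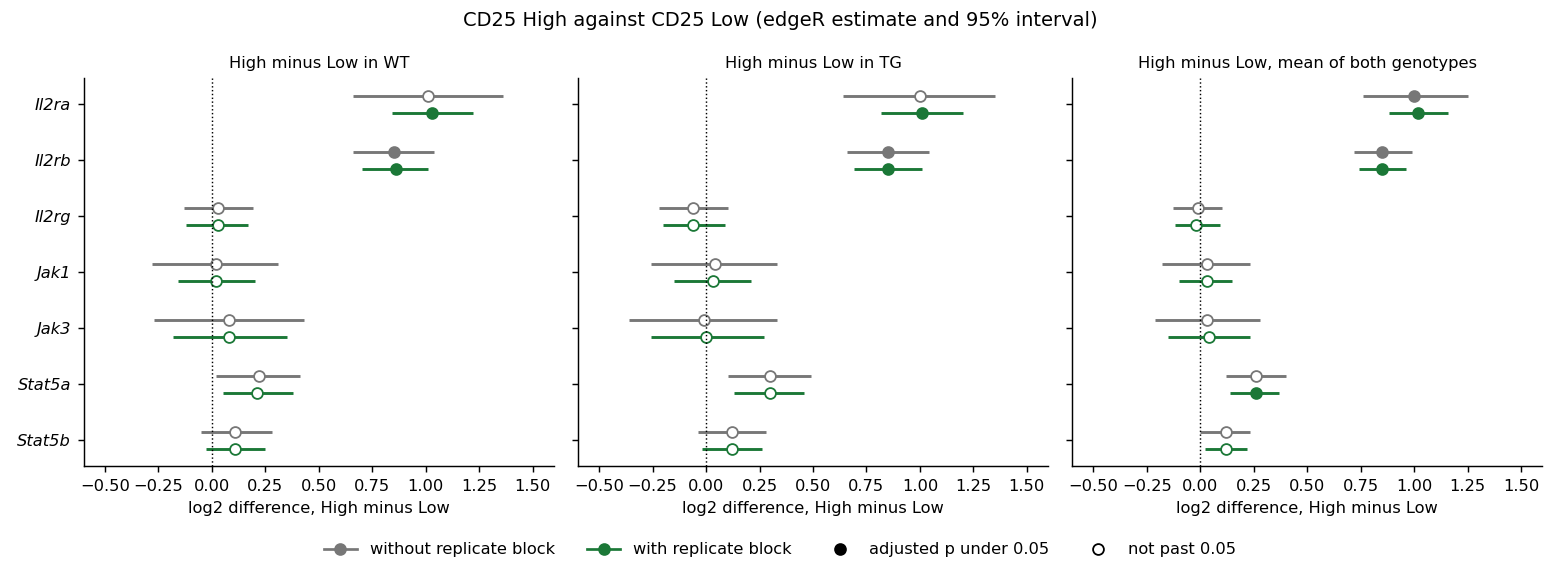
Log2 difference between CD25 High and CD25 Low libraries for each gene in WT, in TG and as the mean of both genotypes (edgeR estimate with 95% interval; grey without and green with the replicate block; filled points have an adjusted p under 0.05). Il2ra lies near 1.00 and Il2rb near 0.85 in each panel, Stat5a between 0.21 and 0.30, and the other 4 genes at 0.12 or less.

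Counted by library rather than by test, 4 of the 7 genes had all 6 High libraries above all 6 Low libraries on TMM-scaled CPM: Il2ra, Il2rb, Stat5a and Stat5b. Among all tested genes 1.66% had no overlap in either direction, 0.952% with High above and 0.705% with High below. The gap was wide for Il2ra (lowest High library 1072, highest Low library 734) and for Il2rb (1800 and 1144). It was narrow for Stat5a (175 and 174) and Stat5b (475 and 474). For Stat5a it depended on the scaling, since by unscaled totals TG High replicate 2 stood at 169 and TG Low replicate 3 at 171 CPM. By matched replicate numbers, all 6 pairs were higher in High for each of these 4 genes, against 3 of 6 for Il2rg, 4 of 6 for Jak1 and 5 of 6 for Jak3. A pair counts here when its log2 difference, rounded to 0.01, is above 0. The Il2rg pair of WT number 1 was at 0.00 and is left out, with 1708 CPM in High and 1702 in Low.

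**Figure D3:**
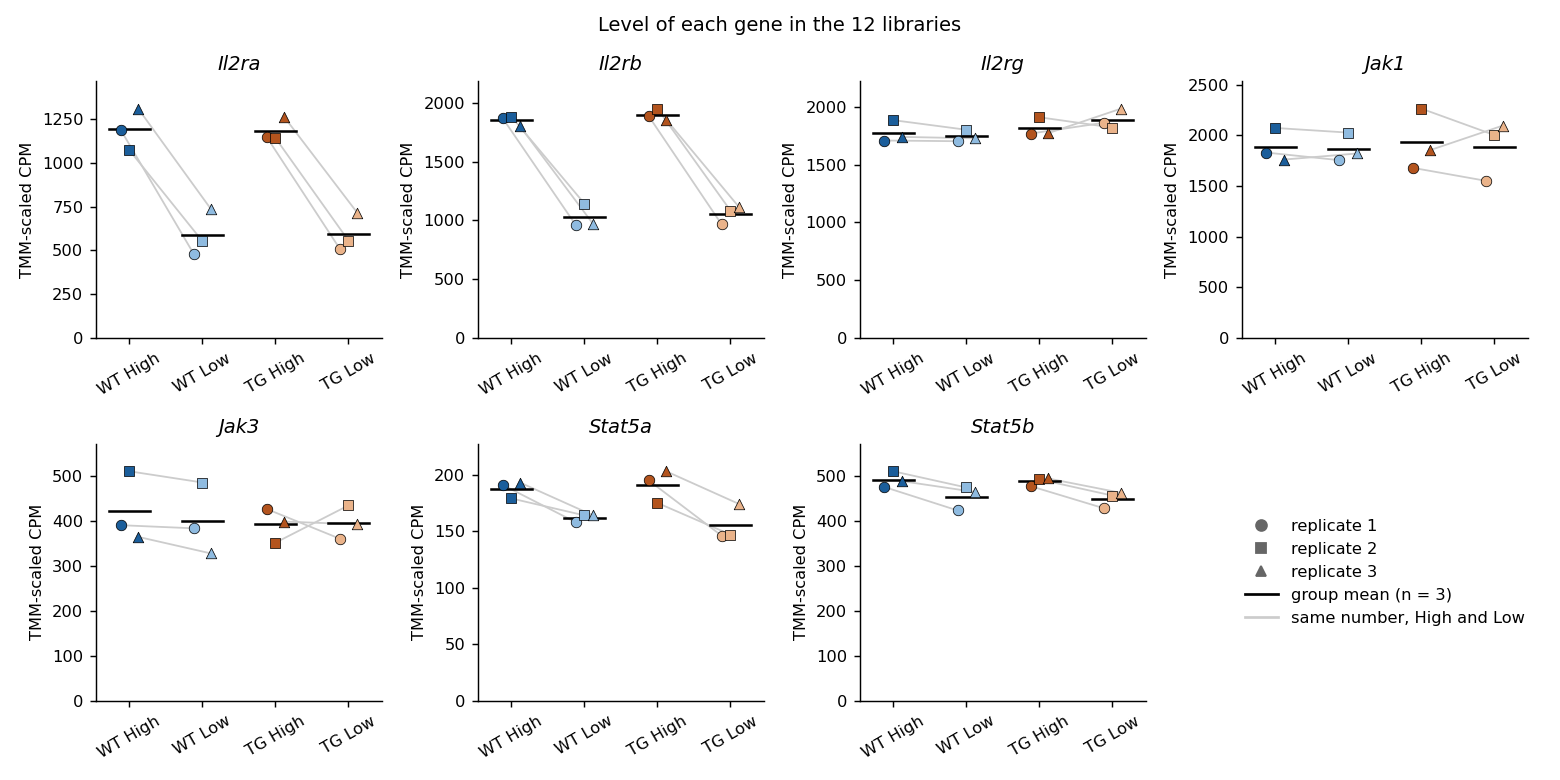
TMM-scaled CPM of each gene in the 12 libraries, with group means (black bars, n = 3), replicate numbers by shape and grey lines joining the High and Low libraries of the same genotype and number. The Il2ra and Il2rb lines all fall steeply from High to Low, those of Stat5a and Stat5b fall slightly, and those of Il2rg, Jak1 and Jak3 run in both directions.

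Among the receptor chains, Il2ra (ENSMUSG00000026770, protein coding, GRCm38 chr2:11642807-11693193, plus strand) encodes the gated protein, so its difference is a check of the gate labels and not an independent result. Its RefSeq promoter window, 250 bases before to 50 after the start (GRCm38.p6 chr2:11642542-11642841, plus strand), is shown because the results turn on this gene; the capitals mark the one match to a search pattern for NF-kB sites (GGGA, any base, T, any 2 bases, CC).

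Il2ra promoter: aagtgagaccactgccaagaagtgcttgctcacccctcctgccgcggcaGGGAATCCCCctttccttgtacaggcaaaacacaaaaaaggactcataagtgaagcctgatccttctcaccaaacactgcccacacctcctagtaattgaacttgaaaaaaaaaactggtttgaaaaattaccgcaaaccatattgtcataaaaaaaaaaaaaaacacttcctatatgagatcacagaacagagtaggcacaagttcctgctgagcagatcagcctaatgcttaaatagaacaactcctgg

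That pattern was chosen after the window had been seen, was searched on both strands and occurs in 4.16% of 32851 RefSeq promoter windows of the same length. The STAT letters TTCNNNGAA, which read the same on both strands, occur in 8.3% of them and in none of the 8 windows found for 6 of the 7 genes (Il2rb was not among them). A match is a description of letters and says nothing of binding, nor does its absence.

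In WT High replicates 1, 2 and 3 Il2ra stood at 1189, 1072 and 1309 CPM, and in WT Low at 481, 553 and 734. TG High had 1147, 1141 and 1261 CPM and TG Low 510, 556 and 715. Every High library was above every Low library, and replicate 3 was the highest in all 4 groups. The fitted difference was 1.01 on the log2 scale in WT (SE 0.16, edgeR adjusted p = 0.0634) and 1.00 in TG (SE 0.16, adjusted p = 0.0819), neither of which passed. With the replicate block both passed, at 1.03 (SE 0.09, adjusted p = 1.42e-05) and 1.01 (SE 0.09, adjusted p = 2.14e-05). The mean gate effect was 1.00 (SE 0.11, 95% interval 0.76 to 1.25, adjusted p = 0.00251). It was 0.90 without the 4 libraries numbered 1 and then missed the threshold in the fit without the block (adjusted p = 0.0687), but not in the blocked fit (0.91, adjusted p = 5.14e-05).

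Il2rb (ENSMUSG00000068227, protein coding, chr15:78479256-78495271, minus strand) encodes the signalling beta chain, which was not part of the gate. WT High replicates 1, 2 and 3 had 1871, 1883 and 1800 CPM and WT Low 963, 1144 and 970. In TG the values were 1888, 1951 and 1858 in High and 966, 1084 and 1112 in Low. The High libraries lay within a narrow band well above all Low libraries in both genotypes. The log2 difference was 0.85 in WT (SE 0.09, edgeR adjusted p = 0.00631) and 0.85 in TG (SE 0.09, adjusted p = 0.00657), and the mean gate effect was 0.85 (SE 0.06, 95% interval 0.72 to 0.99, adjusted p = 0.000146). Within pairs of the same number the difference ran from 0.72 to 0.97. No 50-base stretch of its exons was shared with another gene.

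The WT call for Il2rb without the block was lost without the libraries numbered 1 (0.80, adjusted p = 0.15), without WT High replicate 1 (0.84, 0.0529) or 2 (0.84, 0.0591) and without WT Low replicate 1 (0.81, 0.0721). The TG call was lost without the libraries numbered 1 (0.79, adjusted p = 0.345), without TG High replicate 1 (0.85, 0.0516) or 2 (0.83, 0.071) and without TG Low replicate 2 (0.87, 0.065). The size of the difference moved little, and in the blocked fits both calls held whichever library was left out.

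Il2rg (ENSMUSG00000031304, protein coding, chrX:101264378-101268255, minus strand) encodes the common gamma chain. Its levels were 1708, 1884 and 1739 CPM in WT High, 1702, 1801 and 1727 in WT Low, 1768, 1909 and 1771 in TG High and 1861, 1820 and 1984 in TG Low. The High and Low libraries overlapped throughout, and with a coefficient of variation of 4.89% over the 12 libraries it was the steadiest of the 7. The mean gate effect was -0.01 (SE 0.05, 95% interval -0.13 to 0.10, edgeR adjusted p = 0.986), an interval that holds no change of the size seen for the alpha and beta chains. Of its exonic bases, 30.5% are shared with Gm20489, an overlapping gene on the same strand that is not used here, so reads there could belong to either gene.

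Set against the gamma chain, both other chains stood higher in the High gate, while the ratio of one to the other overlapped between the gates. The ratio of Il2rb to Il2rg per length was 0.581 ± 0.0271 in WT High and 0.327 ± 0.023 in WT Low, and 0.583 ± 0.0128 in TG High and 0.311 ± 0.0213 in TG Low (means of 3 libraries ± SD). That of Il2ra to Il2rg was 0.281 ± 0.0392 and 0.141 ± 0.0319 in WT, and 0.273 ± 0.024 and 0.131 ± 0.0183 in TG. Neither ratio overlapped between the gates in either genotype. With the longest annotated transcripts as lengths, the ratio of Il2rb to Il2rg ran from 0.398 to 0.436 in High and from 0.207 to 0.253 in Low libraries. The ratio of Il2ra to Il2rb overlapped, at 0.483 ± 0.0593 in WT High, 0.435 ± 0.115 in WT Low, 0.468 ± 0.0368 in TG High and 0.421 ± 0.0536 in TG Low. Within pairs of the same genotype and number it was higher in High in 5 of 6, and the ratios to Il2rg were so in 6 of 6.

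**Figure D4:**
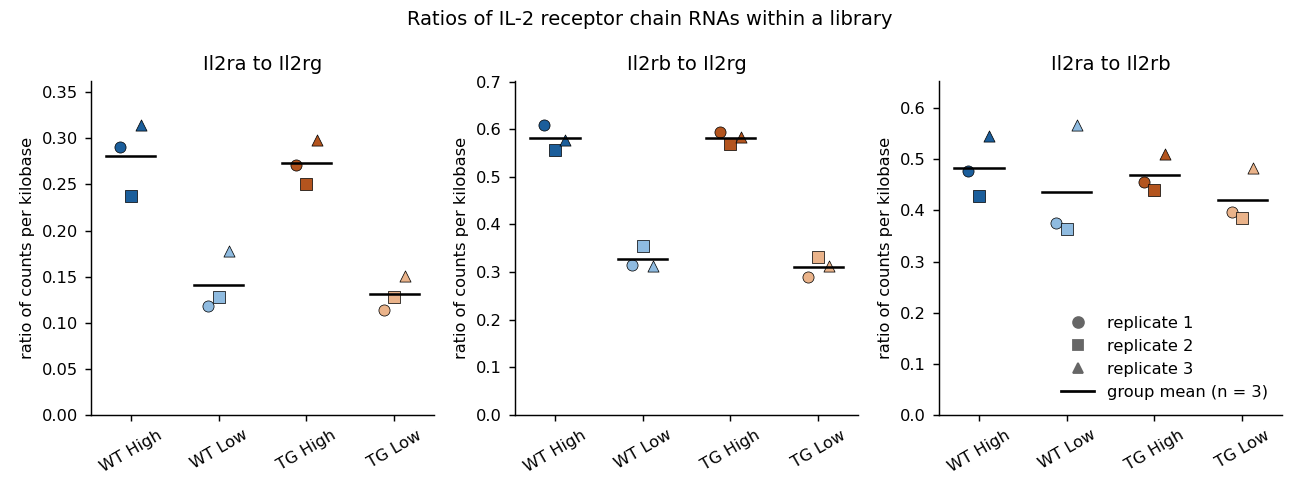
Ratios of receptor chain RNAs per length within each library (points by replicate number, bars for group means, n = 3). The ratios to Il2rg separate High from Low libraries (in TG, means of 0.273 against 0.131 for Il2ra and 0.583 against 0.311 for Il2rb), while the ratio of Il2ra to Il2rb overlaps between the gates.

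Neither kinase passed the test between the gates. Jak1 (ENSMUSG00000028530, protein coding, chr4:101152367-101265282, minus strand) binds the beta chain. Its levels were 1830, 2073 and 1761 CPM in WT High, 1755, 2027 and 1821 in WT Low, 1680, 2264 and 1854 in TG High and 1552, 2003 and 2097 in TG Low. The groups overlapped fully. Averaged over the genotypes, the gate effect was 0.03 (SE 0.10, 95% interval -0.18 to 0.23, edgeR adjusted p = 0.986), and the interval with the block was -0.10 to 0.15.

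Jak3 (ENSMUSG00000031805, protein coding, chr8:71676296-71690575, plus strand) binds the gamma chain. It stood at 391, 511 and 365 CPM in WT High, 384, 486 and 328 in WT Low, 427, 352 and 399 in TG High and 361, 435 and 393 in TG Low. Replicate 2 was the highest library of its group in WT High, WT Low and TG Low and the lowest in TG High, where it is the shallowest library of all. Between the gates the mean difference was 0.03 (SE 0.11, 95% interval -0.21 to 0.28, edgeR adjusted p = 0.986), and 0.04 with the block (-0.15 to 0.23). Of its exonic bases 7.55% are shared with Insl3 on the same strand, which itself had 1.51 to 5.26 CPM (of unscaled totals). The ratio of Jak1 to Jak3 per length was 3.35 in WT High, 3.53 in WT Low, 3.71 in TG High and 3.51 in TG Low.

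The STAT5 genes lie next to each other on chromosome 11 and have closely alike coding sequences, which bears on how reads are assigned to them. Stat5a (ENSMUSG00000004043, protein coding) is at chr11:100859351-100885169 on the plus strand and Stat5b (ENSMUSG00000020919, protein coding) at chr11:100780731-100850724 on the minus strand. Their longest annotated coding sequences (2391 and 2358 bases) are identical at 2080 of 2290 aligned bases (90.8%), with one identical run of 324 bases. Pairs of windows of 90 bases are shown, taken from the GENCODE vM21 transcript sequences on GRCm38. Capitals mark the bases identical in both genes, and positions count from the first base of the coding sequence. The first pair, from position 865, starts inside the identical run. The second, from position 88, is the least alike of the windows in which the alignment has no gap.

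Stat5a from 865: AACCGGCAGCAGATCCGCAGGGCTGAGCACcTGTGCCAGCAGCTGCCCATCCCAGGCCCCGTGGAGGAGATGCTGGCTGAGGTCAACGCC
Stat5b from 865: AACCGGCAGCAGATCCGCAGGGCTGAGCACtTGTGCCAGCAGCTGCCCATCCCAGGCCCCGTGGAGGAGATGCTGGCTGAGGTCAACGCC
Stat5a from 88: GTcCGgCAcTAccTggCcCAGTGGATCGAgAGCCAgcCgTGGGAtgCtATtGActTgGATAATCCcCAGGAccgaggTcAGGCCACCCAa
Stat5b from 88: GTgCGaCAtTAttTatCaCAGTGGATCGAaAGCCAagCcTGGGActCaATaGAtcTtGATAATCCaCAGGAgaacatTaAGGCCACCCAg

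The first pair is identical at 89 of 90 bases and the second at 62 of 90. Over all exons, 8.21% of the 50-base stretches of Stat5a occur in Stat5b and 11% of those of Stat5b in Stat5a. Reads from such stretches may have been dropped or split by the counting, whose settings are not known here, so the levels of both genes are uncertain to that extent.

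Stat5a stood at 191, 179 and 193 CPM in WT High and 158, 164 and 164 in WT Low. In TG it was at 195, 175 and 203 in High and at 146, 147 and 174 in Low. On TMM-scaled CPM all High libraries were above all Low libraries. The lowest High value was 179 against 164 as the highest Low value in WT, and 175 against 174 in TG. By unscaled totals the gates overlapped in TG, with 169 CPM in High replicate 2, the shallowest library, and 171 in Low replicate 3. The log2 difference was 0.22 in WT (SE 0.09, edgeR adjusted p = 1) and 0.30 in TG (SE 0.09, adjusted p = 0.617), and with the block 0.21 (SE 0.08, adjusted p = 0.268) and 0.30 (SE 0.08, adjusted p = 0.0696). The mean gate effect was 0.26 (SE 0.06, 95% interval 0.12 to 0.40, adjusted p = 0.138), and the blocked one was 0.26 (SE 0.05, interval 0.14 to 0.37, adjusted p = 0.00929), which passed. DESeq2's Wald test also called it without the block (adjusted p = 0.00468). Without the libraries numbered 1 the blocked value was 0.21 and did not pass (adjusted p = 0.302).

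Stat5b stood at 475, 510 and 488 CPM in WT High, 423, 474 and 464 in WT Low, 477, 492 and 494 in TG High and 428, 456 and 462 in TG Low. The direction was the same in all 6 pairs, by 0.07 to 0.17 on the log2 scale. The mean gate effect was 0.12 (SE 0.05, 95% interval 0.00 to 0.23, edgeR adjusted p = 0.572) and with the block 0.12 (SE 0.05, interval 0.02 to 0.22, adjusted p = 0.181), neither past the threshold. The ratio of Stat5b to Stat5a per length was 3.37 ± 0.253 in WT High, 3.61 ± 0.144 in WT Low, 3.3 ± 0.277 in TG High and 3.73 ± 0.286 in TG Low (means of 3 libraries ± SD). The size of this ratio depends on the length used. With the longest annotated transcripts it ran from 1.85 (TG High replicate 3) to 2.35 (TG Low replicate 2). The ratio was higher in the Low library in 6 of 6 pairs of the same genotype and number.

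The second comparison asks whether the loss of Atg5 in CD11c-expressing cells goes with a change of these genes in the T cells. None of the 7 was called in CD25 High, in CD25 Low or in the mean of both gates, with or without the block. Over all genes 0% were called in each gate in both fits, 0% in the mean of both gates and 0.0510% in that mean with the block. At an unadjusted p under 0.05, 99 genes stood in CD25 High, 48 in CD25 Low and 163 in the mean without the block, none of them a member, and DESeq2 called 0, 0 and 1 gene. With the block those unadjusted counts were 418, 382 and 781, again with 0 members, and DESeq2 called 7, 2 and 36 genes.

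Without the block, the mean TG minus WT difference was 0.00 for Il2ra (95% interval -0.25 to 0.25), 0.04 for Il2rb (-0.10 to 0.17), 0.02 for Jak1 (-0.19 to 0.23), -0.06 for Jak3 (-0.30 to 0.19), -0.01 for Stat5a (-0.15 to 0.13) and -0.01 for Stat5b (-0.13 to 0.10). The mean TG minus WT difference with the block was 0.00 for Il2ra (95% interval -0.13 to 0.14), 0.04 for Il2rb (-0.07 to 0.15), 0.02 for Jak1 (-0.11 to 0.14), -0.02 for Stat5a (-0.13 to 0.10) and -0.01 for Stat5b (-0.11 to 0.09). In both fits these intervals are short of the gate effect of the alpha and beta chains. Jak3 had the widest, -0.04 (-0.23 to 0.15), and its pair of WT and TG High libraries numbered 2 differed by -0.54, where the TG library is the shallowest one. Without that library the blocked Jak3 value was 0.06, of the opposite sign and still not called (adjusted p = 0.928).

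Il2rg was higher in TG in 6 of 6 pairs of the same gate and number, by 0.02 to 0.20 on the log2 scale, but did not pass the test (mean 0.07, SE 0.05, 95% interval -0.03 to 0.18 with the block, edgeR adjusted p = 0.811; -0.04 to 0.19 without it, adjusted p = 1). Its group means were 1777 ± 94 in WT High and 1816 ± 80.7 CPM in TG High, and 1743 ± 51.4 in WT Low and 1888 ± 85.6 in TG Low (means of 3 libraries ± SD). In the Low gate the TG libraries (1820 to 1984) were all above the WT libraries (1702 to 1801), and in the High gate they overlapped. The edgeR difference in the Low gate was 0.12 (95% interval -0.03 to 0.26 with the block) and was not called. How many of all tested genes had 6 of 6 pairs in one direction, or such a separation, was not counted. Neither is therefore read as a result about Il2rg. B cells also express Il2rg, and all 10 B cell markers lay on the higher side in TG (median 0.71 on the log2 scale, 1 of 10 called with the block and 0 without it), with summed levels of 34.5 to 263 CPM in WT and 37.8 to 363 CPM in TG libraries. Of the myeloid and dendritic cell markers 7 of 8 tested were on the higher side too (median 0.80 without and 0.56 with the block, 0 called), at 11.2 to 92.5 CPM in WT and 8.89 to 154 in TG. The part of either list in the Il2rg values was not tested.

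The gate effect was also compared between the genotypes directly. The difference of the gate effects, TG minus WT, ran from -0.09 (Jak3) to 0.08 (Stat5a) over the 7 genes, with 95% intervals between -0.58 and 0.47, and 0 were called, as were 0% of all tested genes (27 at an unadjusted p under 0.05, DESeq2 0). With the block it ran from -0.08 to 0.08 with intervals between -0.46 and 0.31, again with 0 called (118 genes at an unadjusted p under 0.05, DESeq2 0).

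**Figure D5:**
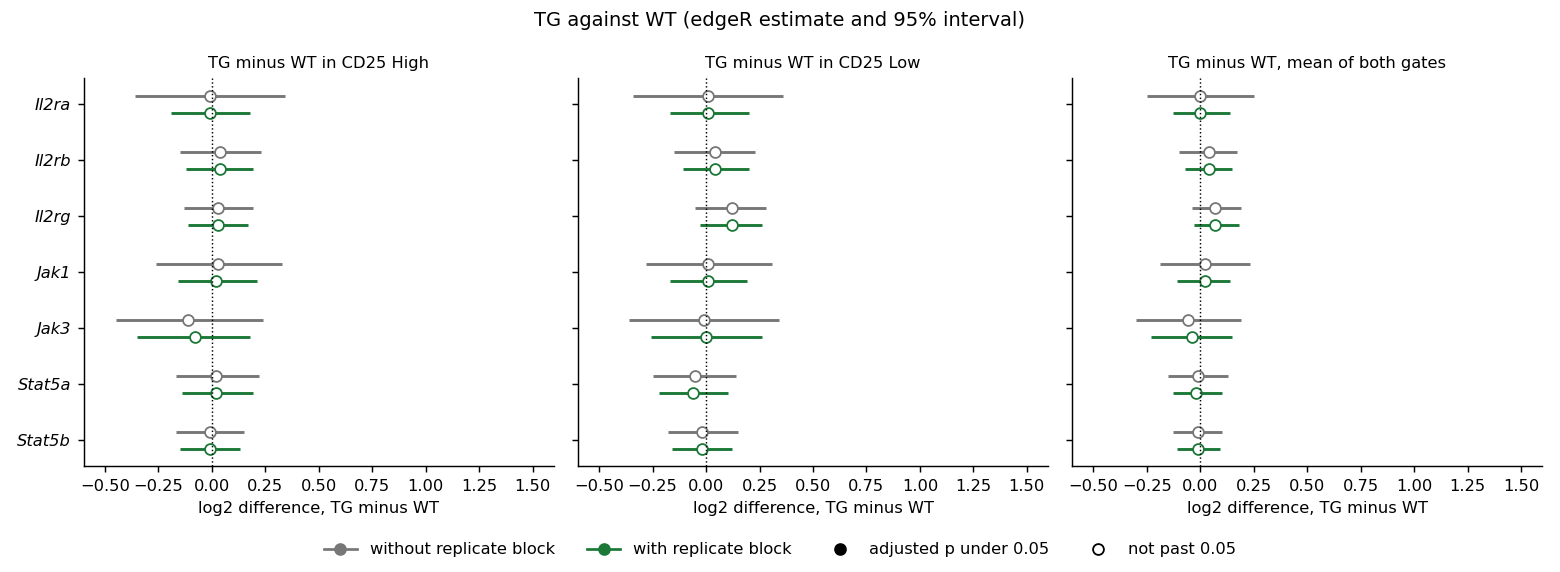
Log2 difference between TG and WT libraries for each gene in CD25 High, in CD25 Low and as the mean of both gates (edgeR estimate with 95% interval; grey without and green with the replicate block). The horizontal scale is the same as in the plot of gate effects, all points are open because no difference passed, and they lie between -0.11 and 0.12.

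The genes differed in what their variation followed. On the log2 scale the gate held 89.2% of the variance of Il2ra over the 12 libraries, 96.8% of that of Il2rb, 71.1% for Stat5a and 58.4% for Stat5b, against a median of 5.64% over all tested genes. For Il2rg, Jak1 and Jak3 it held 1.25%, 0.793% and 0.934%. The replicate number, whose meaning the labels do not give, held 67.1% of the variance of Jak1 and 35.2% of that of Jak3, where the median tested gene had 40.5%, and 1.3% of that of Il2rb. With the 4 groups held constant, 2 of 7 members differed among the replicate numbers, where 34.3% of all tested genes did. They were Il2ra, at a mean of 831, 831 and 1005 CPM in numbers 1, 2 and 3 (edgeR adjusted p = 0.00459), and Jak1, at 1704, 2092 and 1883 CPM (adjusted p = 0.0175). Without TG High replicate 1 or TG Low replicate 1, 1 of 7 was called, and without TG High replicate 2, 3 of 7.

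Among themselves, Il2ra and Il2rb had a Pearson r of 0.94 over the 12 libraries, which share their gates, and of 0.11 after the group means were taken off. For Il2ra and Stat5a these were 0.91 and 0.68, and for Il2rb and Jak1 0.22 and 0.75. The first pair was thus alike mainly through the gate. These are descriptions over 12 libraries that also share depth and replicate number.

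The genes with the pattern most like Il2ra, by Pearson r of log2 CPM over 12 libraries among 8306 genes, were Socs2 (0.99), an inhibitor of cytokine signalling, Gpr83 (0.98), Slc22a5 (0.97), Lrrc32 (0.97), which encodes the GARP protein that holds latent TGF-beta on Tregs, and Mcub (0.96). Nearest to Il2rb were Rragd (0.97), Zscan29 (0.96), Gpr83 (0.95), Foxp3 (0.95) and Sdc4 (0.94). Gpr83 thus stood in both lists. The nearest to Il2rg were Grap (0.87), Ube2q2 (0.86) and Cnp (0.86), and to Jak1 Smad1 (0.96), Kat7 (0.94) and Pik3c3 (0.93). For Jak3 they were Akt2 (0.90), Rbm28 (0.89) and Cmtr1 (0.88), for Stat5a Rasip1 (0.97), Gadd45g (0.95) and Ggta1 (0.95), and for Stat5b Trpc4ap (0.97), Tex2 (0.95) and Xxylt1 (0.95).

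Further along the pathway, no adaptor or kinase of the other receptor branches passed the test between the gates, and 12 of 24 genes listed as STAT5 targets passed with the block. The gene lists were chosen with earlier results of these data known, so their counts are descriptions and not independent results. The counts are for the mean gate effect, in which the median over all tested genes was 0.00 on the log2 scale. Of all tested genes 3.26% were called higher and 2.63% lower in High with the block, and 0.348% and 0.170% without it. Of 20 adaptors and kinases of the other IL-2 receptor branches, 19 were tested and 0 were called in either fit (median -0.01), a share near that of all genes. The cytokines and receptors that share the gamma chain had 6 of 11 tested, and 1 fell with the block, Il9r, which encodes the IL-9 receptor chain (-1.17, SE 0.13, adjusted p = 4.93e-05; without the block -1.22, adjusted p = 0.857). Il9r varied from 0.88 to 40.9 CPM over the libraries. Among the list members of these groups only Il9r was also called higher in TG, by 0.80 with the block (SE 0.13, edgeR adjusted p = 0.0484). Without the block that difference was 0.90 (SE 0.97) and was not called. Il4ra, Il7r and Il21r, the partner chains for IL-4, IL-7 and IL-21, were at 0.05, 0.11 and -0.04 with the block and were not called. Il2 itself reached at most 1.38 CPM in any library.

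A list of 16 inhibitors holds genes that act on the relay and also the MAP kinase phosphatases Dusp4, Dusp5 and Dusp6. All 16 were tested, and 4 were higher in CD25 High with the block and 1 (Socs2) without it, where 3.26% and 0.348% of all tested genes were higher. In either fit 0 were lower, and the median was 0.03. Socs2 was at 58.5 ± 8.97 and 27.4 ± 6.76 CPM in WT High and Low and at 58.3 ± 5.48 and 28.5 ± 4.14 in TG High and Low (mean ± SD, n = 3), a mean gate effect of 1.06 without the block (SE 0.13, edgeR adjusted p = 0.00434). Cish, another STAT5-induced inhibitor, stood at 342 ± 51.2 and 224 ± 58 in WT and 301 ± 49.7 and 223 ± 26.9 CPM in TG, a rise of 0.53 with the block (SE 0.07, adjusted p = 0.000184; 0.144 without the block). Dusp4 (0.75, adjusted p = 0.00235) and Dusp5 (0.20, adjusted p = 0.0288), phosphatases that act on MAP kinases, were the others called with the block. Socs1 and Socs3 were at 0.22 and -0.07 and did not pass.

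Of 24 STAT5 target genes, all tested, 12 were higher in CD25 High with the block, 4 of 24 were higher without it and 0 were lower in either fit (median 0.23), where 3.26% of all tested genes were higher with the block and 0.348% without it. The 4 were Socs2, Lrrc32, Foxp3 and Ikzf4. Lrrc32 was at 665 ± 90.4 in WT High and 322 ± 64.6 CPM in WT Low (mean ± SD, n = 3), and its mean gate effect was 0.96 (SE 0.15, edgeR adjusted p = 0.0188). Foxp3 was at 1550 ± 105 and 1086 ± 101 CPM in WT and 1525 ± 114 and 1140 ± 48.7 CPM in TG, a difference of 0.47 (SE 0.07, adjusted p = 0.0115). Those that passed only with the block included Ctla4 (0.50), an inhibitory receptor, Tnfrsf4 (0.63) and Tnfrsf18 (0.34), costimulatory receptors, and Bcl2l1 (0.27) with a survival function. Bcl2 (0.19) and Pim1 (-0.05) were not called. The list shares 5 genes with the Treg marker list, all 5 of them among the 12. In the mean TG to WT comparison 0 genes of this list and 0 inhibitors were called in either fit, with medians between 0.00 and 0.03. That mean covers both gates, and the count of targets on the higher side was not the same in each. With the block, 8 of the 24 targets were on the higher side in TG in CD25 High (median -0.05) and 20 in CD25 Low (0.07). Without it these were 6 (-0.04) and 19 (0.08). The difference of the gate effects, TG minus WT, was positive for 4 of 24 with the block (median -0.10) and 3 without it (-0.13). In these comparisons 0 targets were called, as were 0% of all tested genes. The share of all tested genes on the higher side was not counted. A difference between the gates in the genotype effect on the targets was thus not shown.

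Markers of the sorted and of other cells moved with the gate as well, and their part in the results above was not tested. The shares of all tested genes are again 3.26% higher and 2.63% lower with the block, and 0.348% and 0.170% without it. Of 10 Treg markers, 8 were higher in CD25 High with the block and 4 without it, and their summed level was 4015 to 5142 CPM (of unscaled totals) in High and 2936 to 3950 in Low libraries. Of 10 conventional CD4 T cell markers, 5 were lower with the block and 2 without it, with summed levels of 2304 to 2989 in High and 2465 to 3483 in Low. Bach2 and Il7r lay on the higher side in High, at 0.19 and 0.11 with the block, neither called. NK cells and memory CD8 T cells also express Il2rb. Of the NK cell markers 6 of 9 tested were lower in CD25 High with the block and 0 without it, and 0 were higher; Nkg7 stood at 0.54 and Eomes at 0.00 with the block, neither called. The NK cell markers summed to 32.7 to 68.4 CPM in High and 28.5 to 103 in Low, and Ncr1 was at 0 in 5 of 12 libraries. In the libraries numbered 1 the sum was 66.7 to 68.4 in High and 94.7 to 103 in Low. In those numbered 2 and 3 it was 32.7 to 42.4 in High and 28.5 to 59.9 in Low. Of the 6, Ncr1, Klrb1c, Klrd1 and Klrk1 reached at most 8.69, 3.63, 2.65 and 5.14 CPM in any library, Tbx21 20.9 and Prf1 41.2. The 2 CD8 T cell markers summed to 29.1 to 39.6 in High and 26.4 to 41.6 CPM in Low, with 0 called. B cell markers (34.5 to 363 in High, 39.5 to 353 in Low, 1 of 10 lower with the block) were highest in the libraries numbered 1. Myeloid and dendritic cell markers summed to 10.3 to 43.5 CPM in High and 8.89 to 154 in Low, with 3 of 8 tested lower with the block, 0 without it and Csf1r at 0 in 3 libraries. The high Low values were those of WT Low replicate 1 (92.5) and TG Low replicate 1 (154), where Csf1r stood at 16.1 and 21.5 CPM; the other 4 Low libraries were at 8.89 to 18.5 and the High libraries numbered 2 and 3 at 10.3 to 13.7.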

How the data were processed

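Per the labels' protocols, RNeasy Mini columns gave the RNA and the SMARTer Ultra Low kit the cDNA, and libraries were made with Nextera XT, per the series' design text. This chemistry does not record strand. The authors deposited raw read counts, 1 whole number for each Ensembl gene and library, without normalization. CASAVA 1.8.2, STAR 2.4, featureCounts 1.4.6 and the build GRCm38 are named in the submitters' processing notes, without their settings. Symbols, positions and exons came from GENCODE vM21 on GRCm38 (21628 of 21839 genes matched), and promoter windows from RefSeq.

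Counts were tested with edgeR 4.0.16 in R 4.3.3: TMM scaling, filterByExpr with a minimum count of 10 (11766 genes kept, 99.96% of counts), robust quasi-likelihood fits over 12 libraries in 4 groups, Benjamini-Hochberg adjustment at 0.05. SEs come from the spread between libraries, and intervals cover 95%. Replicates of a group differed by more than sampling noise (chi-square per degree of freedom 21 to 48.1). Steps were tested on simulated data. The 7 members and the gene lists were chosen with earlier results of these data known. Named besides the members were list genes called in either fit, up to 8 per list, some list members below the threshold as contrast, and the 3 or 5 genes most alike by Pearson r among genes averaging 10 CPM or more (prior count 2); Socs1, Socs3, Il4ra, Il7r, Il21r, Bcl2 and Pim1 were picked after their values were seen.

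Whether the replicate numbers pair the samples was checked on deviations from the group means. Same-numbered libraries of different groups correlated at 0.34 to 0.83 (18 pairs), other pairs at -0.688 to 0.197 (36 pairs), and 12 of 12 libraries were most alike to one of their own number. The numbers were therefore taken as pairs; this comes from the data, since the labels do not say what they mark. Alternatives were the replicate block, DESeq2 1.42.0 and its size factors, no filter, and leaving out each library or each replicate number. The list of other JAK and STAT genes and a further sort marker are not reported here.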

Additional observations from a re-analysis of the deposited data

How the results depend on the processing

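Il2rb kept its direction and size under all 32 settings in the mean gate effect (0.80 to 0.89 on the log2 scale) and was called in each. Il2ra ran from 0.90 to 1.10 and lost its call only without the libraries numbered 1 and without the block. With the replicate block, which follows the pairing by number, the members called in the gate effect were 2 instead of 1 in WT and 2 instead of 1 in TG, and the genes called were 192 instead of 6, 198 instead of 1 and 692 instead of 61 in the mean. The block changed the call of Il2ra in each genotype and of Stat5a in the mean, and of no other member.

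In WT 2 members were also called by DESeq2's Wald test, without a filter, and with the block by DESeq2 or its size factors. In TG 2 were called by DESeq2 and by the block with DESeq2's size factors, and 3 by DESeq2 with the block. Leaving out libraries gave 0 to 2 members in WT, 0 to 2 in TG, 1 to 3 in the mean gate effect and 1 to 3 among replicate numbers. Stat5a was called in the mean in 15 of 16 blocked settings and, without the block, by DESeq2 alone. Over all settings the genes called ran from 0 to 281 in WT, 0 to 362 in TG, 3 to 827 in the mean gate effect and 0 to 36 in the mean genotype effect.

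Values near 0, never called, changed sign: without a filter the mean TG minus WT difference of Il2ra was -0.00, and with libraries left out it ran from -0.08 to 0.10 for Il2ra (blocked -0.04 to 0.05, in between -0.02 and -0.01), -0.04 to 0.10 for Jak1 in both fits (also -0.02 and -0.01), -0.12 to 0.03 for Jak3 (blocked -0.09 to 0.06), -0.06 to 0.02 for Stat5a (blocked -0.05 to 0.01) and -0.04 to 0.00 for Stat5b (blocked -0.03 to -0.00). The mean gate effect ran from -0.04 to -0.00 for Il2rg (blocked -0.05 to 0.01), -0.04 to 0.07 for Jak1 (blocked -0.01 to 0.08) and -0.05 to 0.12 for Jak3 (blocked -0.01 to 0.13). The causes were not tested. The lowest count of a member was 1143 (Stat5a in TG High replicate 2, the shallowest library).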
